A study of Homo sapiens with 24 samples.

Results

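The data compare 2 copper chelators in the SH-SY5Y line, grown from a human neuroblastoma and of noradrenergic character, when interferon gamma (IFN) is present in both arms. One arm received TEPA together with IFN for 24 h, and the other received dextran-catechin (DC) together with IFN for 24 h. The libraries compared were chosen by their treatment labels alone. They are 6 RNA-seq libraries, 3 per arm, of 24 in the series. The remaining libraries used here for reference, also 3 per group and at 24 h, held cells with IFN alone, with TEPA or DC without IFN, and untreated cells. Cells treated with copper and their controls, both at 4 h with 3 libraries per group, are not compared here. They were part of the fit from which the spread was estimated. Doses are not in the labels, so the arms are compared as treated and not per unit of compound. Whether libraries of one group came from separate cultures is not stated, so p-values measure only the spread between these libraries, which may be technical.

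TEPA is a small linear polyamine that binds copper, and dextran-catechin is a plant polyphenol joined to a sugar polymer. Cells read their metal content through the transcription factor MTF1, which responds to zinc and drives metallothioneins and the zinc exporter SLC30A1. NRF2 turns on detoxifying and glutathione genes when its inhibitor KEAP1 is modified by reactive compounds, p53 turns on cell cycle arrest and death genes, and SREBP factors turn on sterol and fatty acid enzymes. IFN acts through its receptor and JAK kinases to raise antigen presentation genes and CD274, the gene of the checkpoint ligand PD-L1.

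Library totals ran from 28706719 to 31987565 counts with TEPA+IFN and from 24569980 to 32622130 with DC+IFN, and 16505 to 16951 genes had at least 1 count. Of 12 adrenergic neuroblastoma markers 11 were expressed in the 6 libraries, among them HAND2 and ISL1, while TH, tyrosine hydroxylase, was listed at 0 counts in all of them. Levels also shifted with the GC content of genes. The shift, taken as the median log2 level of GC-rich genes (fraction over 0.6) less that of GC-poor ones (below 0.4), relative to all libraries, was 0.26, 0.87 and 0.13 in TEPA+IFN libraries 1 to 3 and -0.20, -0.16 and 0.36 in DC+IFN libraries 1 to 3. The ranges of both arms overlapped, and TEPA+IFN library 2 and DC+IFN library 3 were the GC-rich ones of their arms. Levels are given in CPM, counts scaled to a common library total, and a gene is called where edgeR's quasi-likelihood test gave a Benjamini-Hochberg adjusted p under 0.05 over all genes tested. Gene lists were chosen with earlier results of these data known. The share of all genes printed beside a list's calls is therefore a reference and not a test of the list.

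Of 14654 genes tested, 398 (2.72%) were called between the arms, 158 higher in TEPA+IFN (1.08%) and 240 lower (1.64%). At least 2-fold differences were found for 32 of the higher and 33 of the lower genes. The zinc exporter SLC30A1, the quinone reductase NQO1 and the desaturase SCD were lower with TEPA+IFN, and the zinc importer SLC39A10 and the cell cycle inhibitor CDKN1A were higher. Over all genes tested the median log2 fold change was 0.01, and 30% of them had groups of 3 that did not overlap, against 398 of the 398 called. With the GC trend removed 1895 genes were called, 971 higher and 924 lower, so that higher calls were 51.2% of the total in place of 39.7%. The count fell to 236 without DC+IFN library 1, 217 without DC+IFN library 2, 212 without TEPA+IFN library 1 and 181 without TEPA+IFN library 2, and was 86 with TEPA+IFN library 2 and DC+IFN library 3 both left out, an alternative chosen after seeing the data.

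**Figure D1:**
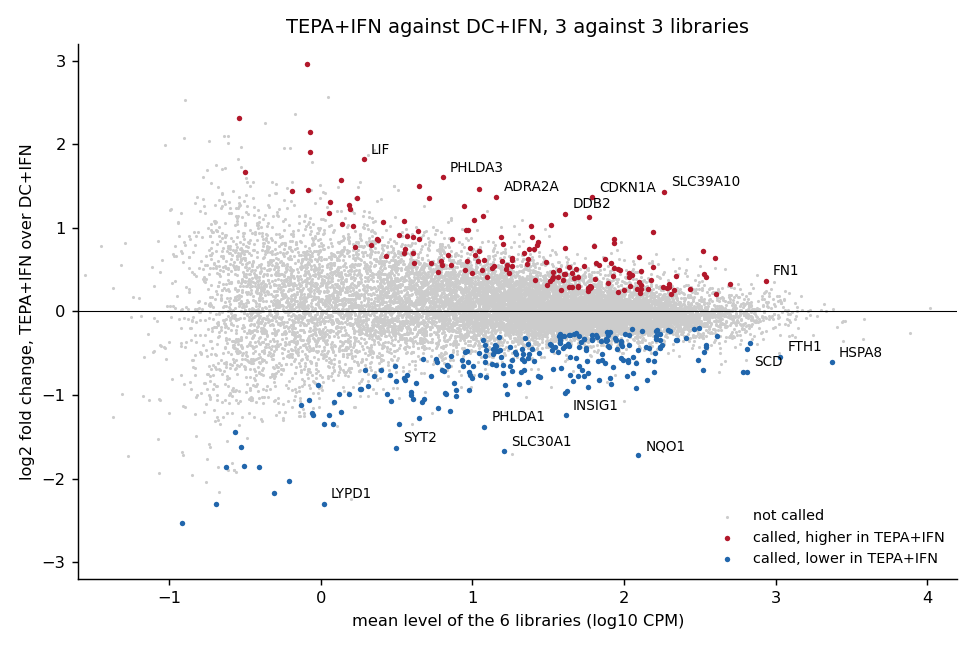
Log2 fold change of TEPA+IFN over DC+IFN (y axis) against the mean level of the 6 libraries in log10 CPM (x axis); each point is a gene, red for the 158 called higher and blue for the 240 called lower in TEPA+IFN. SLC39A10, CDKN1A and PHLDA3 stand above the other genes of their level, and NQO1, SLC30A1 and LYPD1 below.

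A zinc exporter and a zinc importer differed between the arms in opposite directions. SLC30A1, which exports zinc across the plasma membrane (chromosome 1, 211571568 to 211578742, GRCh38), was at 8.62, 7.21 and 7.41 CPM in TEPA+IFN libraries 1 to 3 and at 25.7, 25.7 and 22.8 CPM in DC+IFN libraries 1 to 3. Each TEPA+IFN library was far below each DC+IFN library, a 3.19-fold difference (log2 fold change -1.67, SE 0.18, edgeR adjusted p = 2.65e-05). SLC39A10, a zinc importer of the plasma membrane (chromosome 2, 195575977 to 195737702), went the other way, with 281, 251 and 273 CPM against 98.8, 105 and 94.6 CPM. Its arms did not overlap either, at 2.70-fold higher with TEPA+IFN (log2 fold change 1.43, SE 0.18, edgeR adjusted p = 0.000172). Both calls held in all 18 alternatives to this fit.

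The promoter of SLC30A1 is shown because the gene is the lead member of the zinc group and MTF1 acts on a known sequence, the metal response element. The window runs from 250 bases before to 50 bases after the RefSeq start (GRCh38.p14, minus strand, chr1:211579112-211579411), 5′ to 3′, and the capitals mark matches to the element's core, TGCACNC or TGCGCNC, searched on both strands.
SLC30A1: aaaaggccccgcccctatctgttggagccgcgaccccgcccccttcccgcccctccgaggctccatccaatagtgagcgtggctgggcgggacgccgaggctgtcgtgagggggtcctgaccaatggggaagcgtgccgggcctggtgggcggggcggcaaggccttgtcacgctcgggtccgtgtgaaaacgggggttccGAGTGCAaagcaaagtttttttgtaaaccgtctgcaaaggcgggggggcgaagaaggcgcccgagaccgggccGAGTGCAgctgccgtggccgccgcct
There are 2 matches, beginning 49 bases before and 25 bases after the start, both on the opposite strand and with the same 7 letters. A match was found in 29.3% of 27305 RefSeq promoters of the same length, and the SLC39A10 window had none. The RefSeq starts differ from those of the gene positions printed above, which are from GENCODE. The SLC30A1 window lies wholly upstream of its printed position, and the SLC39A10 window lies inside its own.

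Metallothioneins, the small proteins that store zinc and copper, were sparse in both arms, and because their genes are near-identical the share of each is uncertain. MT2A stood at 1.5, 2.94 and 1.99 CPM with TEPA+IFN and at 4.5, 3.88 and 4.83 CPM with DC+IFN. These values did not overlap but the difference was not called (log2 fold change -1.04, SE 0.45, edgeR adjusted p = 0.302); it passed in 4 alternatives, for example at 0.0343 with the GC trend removed. MT1F had 1 count in each TEPA+IFN library and 5, 4 and 9 counts in DC+IFN libraries 1 to 3. The ratio of its pooled rates was 0.156 (95% counting interval 0.0294 to 0.533, counting error only), and its call (adjusted p = 0.0291 in edgeR) was lost in every fit without 1 library except that without DC+IFN library 2 (adjusted p up to 0.148), and in DESeq2 and limma-voom. MT1X, at 12 and 28 counts in all, was not called (adjusted p = 0.622). In the whole list of zinc transporters, metallothioneins and MTF1, 1 of 24 tested members was higher and 2 were lower, beside 2.72% of all genes called, with a median log2 fold change of -0.03.

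Of 19 tested genes of copper uptake, export and delivery 1 was called higher with TEPA+IFN (1.08% of all genes were), 6 had an unadjusted p under 0.05 (13.3% of all genes did), and the median was 0.03. Their summed level was 1603 to 1608 CPM with TEPA+IFN and 1492 to 1547 CPM with DC+IFN, which do not overlap. The copper importer SLC31A1 was at 152, 152 and 147 CPM with TEPA+IFN and 135, 129 and 127 CPM with DC+IFN. Its groups did not overlap, but the log2 fold change of 0.21 (95% interval 0.01 to 0.40) was not called (adjusted p = 0.336 in edgeR; 9.66e-05 with the GC trend removed). COX19, a copper chaperone of cytochrome c oxidase assembly, was higher with TEPA+IFN (16.4, 16.5 and 14.6 against 11.6, 10.8 and 10.8 CPM, log2 fold change 0.52, adjusted p = 0.0198), and was the call in that list. It was lost in every fit without 1 library except that without TEPA+IFN library 3 (adjusted p up to 0.109). No member of the list was called with both GC-rich libraries left out, or with a replicate block in only the libraries compared. DESeq2 and limma-voom each called 2 members, all higher, where 250 and 165 of 14654 genes were called higher. With the GC trend removed 4 members were called, all higher, where 971 of 14654 genes were. The copper exporter ATP7A had a log2 fold change of 0.22 (95% interval -0.13 to 0.57). Among 30 cytochrome c oxidase subunits and assembly genes 3 were higher with TEPA+IFN, beside 1.08% of all genes, and 0 lower (median 0.07). They were COX19, the heme A synthase COX15 (0.27, adjusted p = 0.0376 in edgeR) and the assembly factor COA7 (0.29, adjusted p = 0.0478). COA7 was lost in each fit without 1 library (adjusted p up to 0.332) and COX15 in each except that without TEPA+IFN library 3 (up to 0.104).

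NRF2 targets were lower with TEPA+IFN than with DC+IFN in 6 of 31 tested members, beside 1.64% of all genes, and none was called in the other direction. NQO1, which reduces quinones (chromosome 16, 69706996 to 69726951), was at 55.4, 50.6 and 67.2 CPM with TEPA+IFN and at 198, 190 and 183 CPM with DC+IFN. The lowest DC+IFN library was thus well above the highest TEPA+IFN library, and the difference was 3.30-fold (log2 fold change -1.72, SE 0.15, edgeR adjusted p = 1.25e-05). FTH1, which encodes ferritin heavy chain and so stores iron (chromosome 11, 61959718 to 61967660), was at 847, 872 and 897 CPM against 1256, 1287 and 1264 CPM. These narrow groups were 1.46-fold apart (log2 fold change -0.54, SE 0.07, adjusted p = 0.000216). GCLM, the modifier subunit of the glutathione-making enzyme, had 28.3, 23.2 and 31.4 against 57.7, 54.3 and 51.1 CPM, 1.97-fold apart (-0.98 in log2, SE 0.20, adjusted p = 0.00993).

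The other called members of the NRF2 list were the malic enzyme ME1 (log2 fold change -0.77, adjusted p = 0.027 in edgeR), the thioredoxin reductase TXNRD1 (-0.58, adjusted p = 0.00528) and the sulfiredoxin SRXN1 (-0.35, adjusted p = 0.0169). The list's median was -0.16, and 13 of the 31 members had a positive value. NFE2L2, the gene of NRF2 itself, had a log2 fold change of 0.05 (95% interval -0.25 to 0.35), and heme oxygenase HMOX1 was low and spread (0.558 to 1.12 against 0.882 to 2.05 CPM, adjusted p = 0.528). Without TEPA+IFN library 2 the list had 3 calls, with GCLM (adjusted p = 0.0518), ME1 (0.094) and SRXN1 (0.0588) lost; ME1 was also lost without DC+IFN library 2 (0.0778) or TEPA+IFN library 1 (0.0516) and SRXN1 without DC+IFN library 1 (0.0607). With both GC-rich libraries left out 2 calls remained in the list, and with the GC trend removed it had 11, 1 higher and 10 lower.

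Antioxidant response elements are the sequences that NRF2 binds, and stretches around matches to their core, TGACNNNGC on either strand, are shown for the called members that have one within 250 bases before to 50 bases after the RefSeq start. Sequences are 5′ to 3′ on the strand of the gene (GRCh38.p14), and the capitals mark the match.
GCLM, chr1:93909440-93909479, minus strand: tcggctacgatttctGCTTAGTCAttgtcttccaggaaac
TXNRD1, chr12:104215665-104215704, plus strand: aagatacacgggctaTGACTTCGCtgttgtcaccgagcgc
TXNRD1, chr12:104215756-104215795, plus strand: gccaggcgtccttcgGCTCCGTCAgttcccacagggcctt
ME1, chr6:83431164-83431203, minus strand: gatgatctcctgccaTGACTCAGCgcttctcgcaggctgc
ME1, chr6:83431016-83431055, minus strand: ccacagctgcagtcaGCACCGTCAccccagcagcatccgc
Of the 6 called NRF2 members 5 had a promoter in the table and 3 of these a match, against 13.6% of all promoters. The NQO1 and SRXN1 windows held no match. Sequence further from the start was not searched, so this does not show that these genes lack the element.

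**Figure D2:**
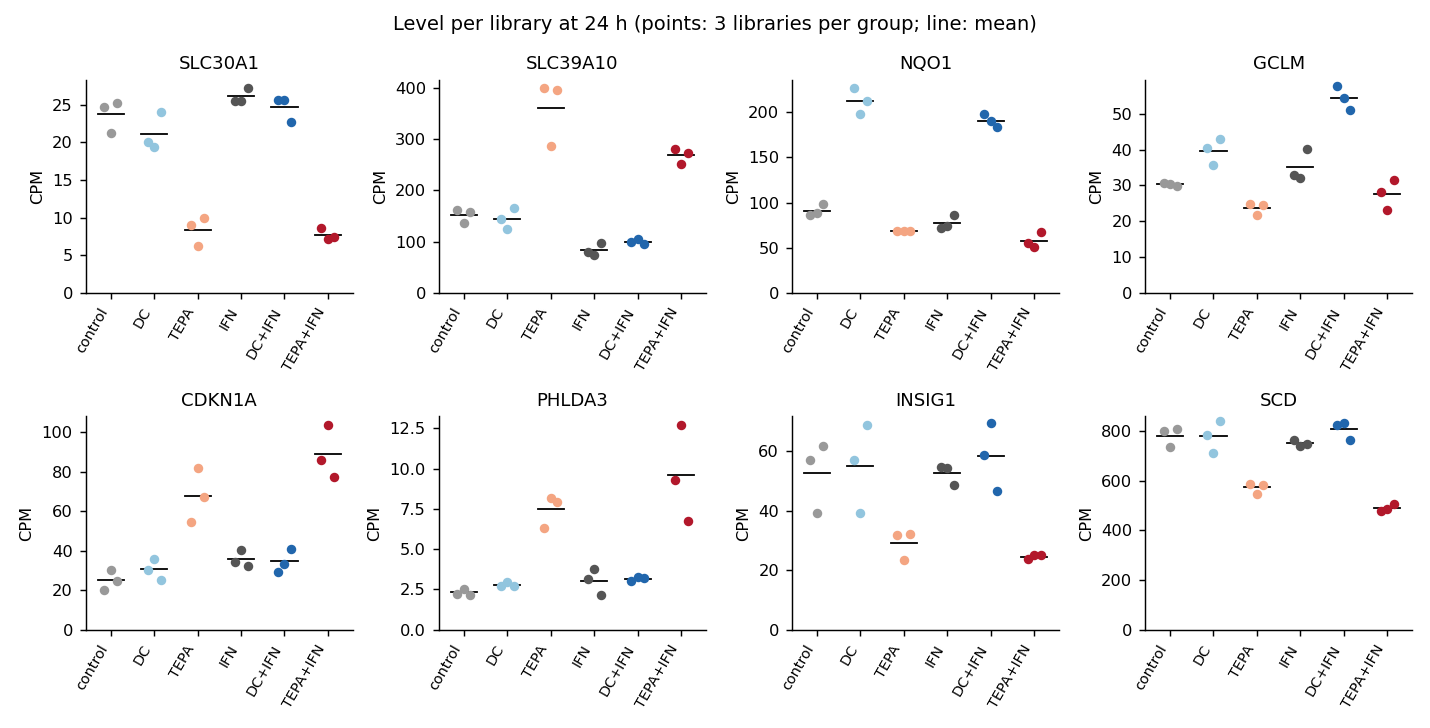
CPM per library (y axis, linear, from 0) of 8 genes in the 6 groups at 24 h; points are the 3 libraries and the line is their mean. SLC30A1, SLC39A10, CDKN1A, PHLDA3, INSIG1 and SCD depart from IFN alone in the TEPA+IFN group, whereas NQO1 and GCLM are highest in the DC groups.

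Targets of p53 were higher with TEPA+IFN. Of 31 tested members 11 were called higher and 0 lower, beside 1.08% of all genes called higher, and the list's median log2 fold change was 0.73, with all 31 values positive (also with size factors in place of TMM and with the GC trend removed). CDKN1A, which encodes the cyclin-dependent kinase inhibitor p21 (chromosome 6, 36676460 to 36687339), was at 85.6, 104 and 77.4 CPM with TEPA+IFN and at 29, 33.5 and 41 CPM with DC+IFN. Every TEPA+IFN library lay above every DC+IFN library, 2.57-fold in the fit (log2 fold change 1.36, SE 0.24, edgeR adjusted p = 0.00347). PHLDA3, an inhibitor of AKT signalling, had 9.31, 12.7 and 6.76 against 3.0, 3.25 and 3.18 CPM. Its TEPA+IFN libraries were spread but clear of the other arm (log2 fold change 1.61, SE 0.25, adjusted p = 0.00162).

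DNA repair and death receptor genes were among the p53 calls. DDB2, which recognises DNA damage, was at 54.6, 62.1 and 53 CPM against 25.5, 23.7 and 26.4 CPM (log2 fold change 1.17, SE 0.19, edgeR adjusted p = 0.00208). The receptor EDA2R had a log2 fold change of 1.10 (adjusted p = 0.00323), the oxidoreductase TP53I3 1.03, the antiproliferative BTG2 1.02, SPATA18 0.97, the death receptor TNFRSF10B 0.87 (adjusted p = 7.28e-05), the nuclease AEN 0.78, the translesion polymerase POLH 0.54 and the repair protein XPC 0.34 (adjusted p = 0.0203). The feedback ubiquitin ligase MDM2 was at 261, 250 and 254 CPM against 182, 186 and 177 CPM but missed the threshold (log2 fold change 0.49, adjusted p = 0.1), as did the apoptosis genes BAX (1.10, adjusted p = 0.469) and BBC3 (1.09, adjusted p = 0.39), whose libraries were more spread. Leaving out 1 library gave 10 to 12 calls in the list, and XPC was lost in every such fit except that without TEPA+IFN library 3 (adjusted p up to 0.179). With both GC-rich libraries left out 5 calls remained in the list. Lost there were CDKN1A and PHLDA3 (edgeR adjusted p = 0.0529 each), DDB2 (0.054), EDA2R (0.0845), AEN (0.0793) and XPC (0.379). With the GC trend removed the list had 22 calls, though not AEN.

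Sterol synthesis and uptake genes were lower with TEPA+IFN in 9 of 24 tested members, beside 1.64% of all genes, with 0 higher and a list median of -0.37. INSIG1, which retains the SREBP activator in the endoplasmic reticulum and is itself an SREBP target (chromosome 7, 155297776 to 155310235), was at 23.6, 24.9 and 25.1 CPM with TEPA+IFN and at 58.6, 69.3 and 46.6 CPM with DC+IFN. The TEPA+IFN libraries were nearly equal and all below the other arm, 2.37-fold in the fit (log2 fold change -1.24, SE 0.21, edgeR adjusted p = 0.00247). FDFT1, which makes squalene, had 129, 128 and 139 against 188, 196 and 177 CPM (log2 fold change -0.50, SE 0.08, adjusted p = 0.00208). Along the pathway the synthase HMGCS1 (-0.83), the isomerase IDI1 (-0.59), the squalene epoxidase SQLE (-0.66), the oxidase MSMO1 (-0.77) and the thiolase ACAT2 (-0.41) were lower as well.

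SREBF2, the gene of the factor that drives the sterol pathway, had a log2 fold change of -0.36 that was not called (adjusted p = 0.537 in edgeR). HMGCS1 lost its call without DC+IFN library 1 or 2 or TEPA+IFN library 1 or 2 (adjusted p up to 0.0777). The list had 7 to 11 calls when 1 library was left out, 2 with both GC-rich libraries left out and 17, all lower, with the GC trend removed.

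Fatty acid synthesis genes showed the same direction, with 6 of 15 tested members lower (1.64% of all genes were), 0 higher and a median of -0.35. SCD, the main desaturase (chromosome 10, 100347124 to 100364834), was at 477, 484 and 508 CPM with TEPA+IFN and 826, 831 and 762 CPM with DC+IFN. The arms were tight and apart, 1.65-fold (log2 fold change -0.72, SE 0.07, edgeR adjusted p = 1.56e-05), in all 18 alternatives. The related SCD5 (-0.45, adjusted p = 0.00326), the acyl-CoA synthetase ACSL3 (-0.59, adjusted p = 0.021), the carboxylase ACACA (-0.34, adjusted p = 0.0288), the desaturase FADS1 (-0.21, adjusted p = 0.0495) and ME1, which is also in the NRF2 list, were lower too. FASN, the fatty acid synthase, was spread within both arms (log2 fold change 0.49, 95% interval -0.87 to 1.86, adjusted p = 0.81). The list had 3 calls without DC+IFN library 2 or without TEPA+IFN library 2 and 2 with both GC-rich libraries left out; ACSL3 was lost without TEPA+IFN library 2 (adjusted p = 0.0694), ACACA without DC+IFN library 1 or 2 (up to 0.0562) and FADS1 in 4 of 6 fits that left out a library and with the GC trend removed (up to 0.344). The sterol response element core TCACNCCAC, present in 1.15% of RefSeq promoters, matched 0 of the 10 promoter windows found for the called sterol and fatty acid genes. Sequence outside these windows was not searched.

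**Figure D3:**
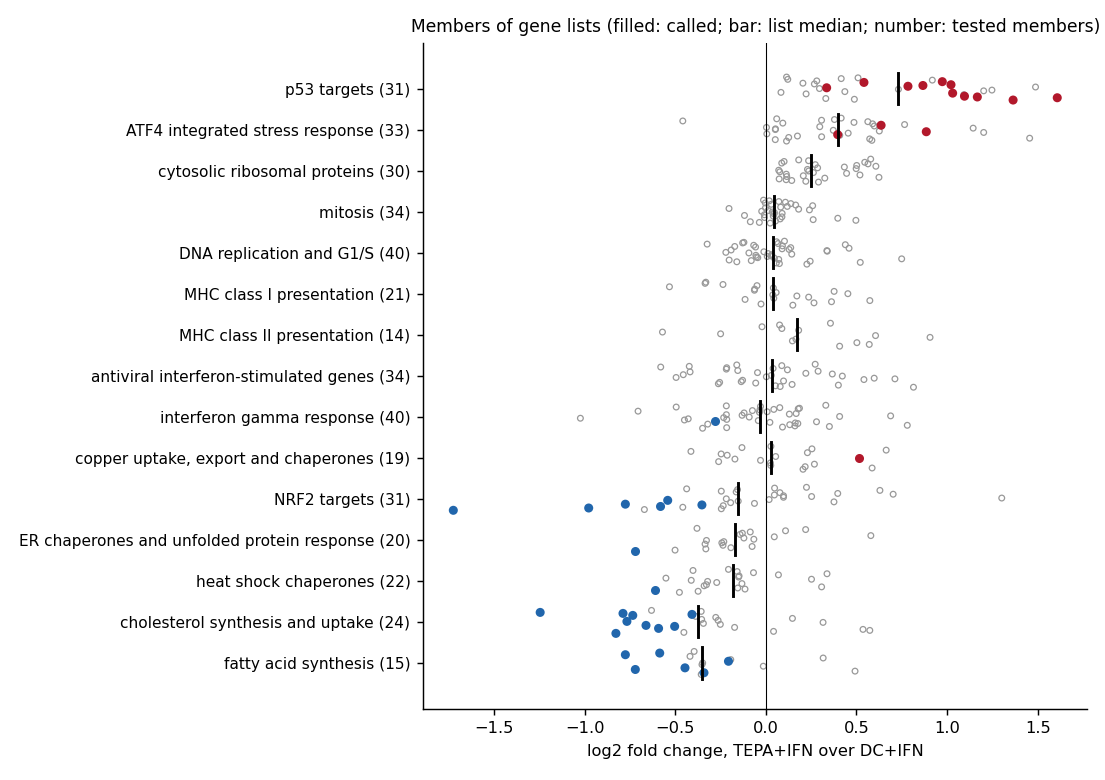
Log2 fold change of TEPA+IFN over DC+IFN (x axis) for each tested member of 15 gene lists (y axis, with the number of tested members); filled points were called, open points were not, and the black bar is the list median. The p53 list lies to the right of 0 in full, and the called sterol, fatty acid and NRF2 members lie to the left.

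Members of the ATF4 list, the amino acid and stress genes of the integrated stress response, had positive values in 32 of 33 cases with a median of 0.40, and 3 were called, all higher with TEPA+IFN, beside 1.08% of all genes. The secreted glycoprotein STC2 was at 22.3, 22.6 and 14.9 CPM against 12.6, 11.1 and 8.69 CPM (log2 fold change 0.89, SE 0.16, edgeR adjusted p = 0.0039). The mitochondrial folate enzyme ALDH1L2 (0.64, adjusted p = 0.0414) and the serine synthesis phosphatase PSPH (0.40, adjusted p = 0.00994) were the others. ATF4 itself was at 218, 219 and 188 CPM against 203, 195 and 179 CPM, which overlap (log2 fold change 0.11, adjusted p = 0.74). With size factors 30 of the 33 members were positive and with the GC trend removed 26, when 12 were called higher and 1 lower; no member was called with both GC-rich libraries left out. PSPH lost its call with the GC trend removed, and ALDH1L2 without DC+IFN library 2 or 3 or TEPA+IFN library 1 or 2 (adjusted p up to 0.16).

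Both chaperone lists held a single call, lower with TEPA+IFN, beside 1.64% of all genes called lower. HSPA5, the main chaperone of the endoplasmic reticulum, stood at 455, 389 and 526 CPM with TEPA+IFN and at 732, 755 and 776 CPM with DC+IFN. The arms were apart (log2 fold change -0.72, SE 0.13, edgeR adjusted p = 0.00499), though HSPA5 was the single call among 20 tested genes of its list, whose median was -0.17. HSPA8, the constitutive HSC70 chaperone, was at 1847, 1498 and 2236 CPM against 2794, 2661 and 3059 CPM, and was the single call among 22 heat shock genes (-0.61, adjusted p = 0.0495). That call was lost in every fit without 1 library except that without TEPA+IFN library 3 (adjusted p up to 0.217).

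The response to IFN itself was present in both arms. CD274 was at 70.0, 60.3 and 45.0 CPM with TEPA+IFN, 74.5, 59.5 and 35 CPM with DC+IFN and 80.7, 64.2 and 43.0 CPM with IFN alone, against 1.11 to 2.20 CPM in the 9 libraries at 24 h without IFN. The arms overlapped in full, library 3 was the lowest of each of these groups, and the arms' log2 difference was 0.05 with a 95% interval of -0.52 to 0.62 (adjusted p = 0.955 in edgeR, 0.599 to 1 over the alternatives). The transcription factor IRF1 had 376, 403 and 277 against 314, 280 and 234 CPM, which also overlap (log2 fold change 0.35, 95% interval -0.12 to 0.83, adjusted p = 0.59).

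Of 40 tested IFN gamma response genes 1 was called, beside 1.64% of all genes called lower. This was the receptor subunit IFNGR2, at 60.8, 59.7 and 55.9 CPM against 72.0, 72.2 and 69.7 CPM (log2 fold change -0.28, SE 0.06, edgeR adjusted p = 0.0126). The list's median was -0.03, with 3 calls without DC+IFN library 3, 2 without TEPA+IFN library 3 and 0 with both GC-rich libraries left out. With the GC trend removed the list had 6 calls, 1 higher and 5 lower. DESeq2 and the fit of the 24 h libraries only gave 3 calls each, all lower. Without DC+IFN library 3 also 2 antiviral genes were called, both lower. None of 34 antiviral interferon-stimulated genes was called in edgeR (median 0.04, 4 at an unadjusted p under 0.05). Nor was any of 21 MHC class I presentation genes (median 0.04, 4 unadjusted) or of 14 MHC class II genes (median 0.17, 0 unadjusted). DESeq2 called 1, 1 and 0 members of these lists and limma-voom 1, 2 and 0. With the GC trend removed, where 1895 of 14654 genes were called, there were 3 (1 higher and 2 lower), 4 (1 higher and 3 lower) and 0. The 24 h libraries only gave 1, 3 and 0, all lower. B2M, the light chain of MHC class I, had a log2 fold change of -0.11 (95% interval -0.47 to 0.24) and the peptide transporter TAP1 0.04 (-0.30 to 0.39). These intervals bound the difference and do not show that the arms were equal.

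Among 17 checkpoint and natural killer ligands 1 was called, beside 1.08% of all genes called higher. This was FGL1, which binds the checkpoint receptor LAG3, at 5.69, 4.96 and 5.23 CPM with TEPA+IFN and 2.42, 3.35 and 2.78 CPM with DC+IFN (log2 fold change 0.89, SE 0.20, edgeR adjusted p = 0.0185). It was lost without DC+IFN library 1 or 3 or TEPA+IFN library 1 (adjusted p up to 0.085). LIF, a cytokine of the interleukin 6 family, was the single call among 18 chemokines and cytokines, beside the same 1.08%, and had the largest rise among the genes named by rule (2.34, 3.97 and 2.68 against 0.583, 0.917 and 1.01 CPM, log2 fold change 1.82, SE 0.45, edgeR adjusted p = 0.0352). Its call was lost in each fit without 1 library (0.0589 to 0.177).

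Neuronal genes differed in both directions. ADRA2A, an adrenergic receptor, was at 20.9, 21.1 and 20.1 CPM with TEPA+IFN and at 8.58, 8.96 and 6.49 CPM with DC+IFN. The arms were well apart (log2 fold change 1.37, SE 0.17, edgeR adjusted p = 0.000128). Lower with TEPA+IFN were CHGB, a granin of secretory granules, at 268, 208 and 281 against 425, 365 and 445 CPM (-0.71, SE 0.14, adjusted p = 0.00694), the vesicular monoamine transporter SLC18A1 (-0.77, adjusted p = 0.0183) and the neuropeptide NPY (-0.61, adjusted p = 0.0464).

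In the whole list of adrenergic identity and catecholamine genes, 2 of 29 tested members were higher, among them the receptor tyrosine kinase RET (0.33, adjusted p = 0.0435 in edgeR), and 4 were lower, beside 1.08% and 1.64% of all genes; the lower ones were CHGB, SLC18A1, NPY and the transcription factor TFAP2B (-0.49, adjusted p = 0.00548). The median was -0.06, and the core factors HAND2 (-0.12) and GATA3 (0.19) were not called. Without TEPA+IFN library 2 the list had 2 calls and CHGB was lost (adjusted p = 0.0639); without DC+IFN library 2 it had 3. RET lost its call in each fit without 1 library (up to 0.227), NPY and SLC18A1 each in 4 of 6 (up to 0.13 and 0.14), and all of RET, NPY and TFAP2B with the GC trend removed, where the log2 fold change was 0.11 for RET, -0.78 for NPY and -0.71 for TFAP2B.

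The largest falls by the naming rule included LYPD1, a modulator of nicotinic receptors, at 0.140, 0.397 and 0.498 CPM with TEPA+IFN and 2.67, 1.38 and 1.19 CPM with DC+IFN (log2 fold change -2.30, SE 0.41, edgeR adjusted p = 0.00386). SYT2, a calcium sensor of synaptic vesicles, was at 1.40, 1.32 and 1.84 against 4.33, 3.99 and 5.81 CPM (-1.63, SE 0.26, adjusted p = 0.00168). NELL1, a secreted glycoprotein, had 3.38, 3.74 and 3.83 against 8.54, 8.71 and 7.28 CPM, narrow groups with the smallest adjusted p among these neural and secreted genes (-1.16, SE 0.12, adjusted p = 2.74e-05). PHLDA1 (-1.38), the adhesion protein FLRT1 (-1.35), the proteoglycan SPOCK3 (-1.35), the heparan sulfotransferase HS3ST2 (-1.35), FANK1 (-1.24) and the diacylglycerol kinase DGKB (-1.20) completed the falls. FLRT1 and SPOCK3, both at about 1 CPM, were no longer called in 4 of 6 fits that left out a library (adjusted p up to 0.0898 for FLRT1 and 0.167 for SPOCK3).

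The largest rises beyond those above were the sodium channel subunit SCN4B (log2 fold change 1.57, adjusted p = 0.00694 in edgeR), FNDC5 (1.51, adjusted p = 0.00625), SAMD11 (1.47, adjusted p = 0.00974), the hyaluronan synthase HAS2 (1.36, adjusted p = 0.0434), the fucosyltransferase FUT1 (1.31, adjusted p = 0.00528) and the histamine methyltransferase HNMT (1.28, adjusted p = 0.0389). FNDC5 was lost without TEPA+IFN library 1 (adjusted p = 0.053), SAMD11 in 3 and HAS2 and HNMT each in 5 of 6 fits that left out a library (up to 0.205), and FUT1 with the GC trend removed.

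Matrix genes gave single calls each way. Fibronectin, FN1, was at 906, 1002 and 1010 CPM with TEPA+IFN and 770, 683 and 806 CPM with DC+IFN (log2 fold change 0.37, SE 0.08, edgeR adjusted p = 0.0124), and the basement membrane protein NID2 at 8.51, 10.3 and 8.22 against 14.2, 16.8 and 15.7 CPM (-0.79, SE 0.12, adjusted p = 0.00139). They were the 2 calls among 25 matrix genes (median 0.02), beside 1.08% of all genes called higher and 1.64% lower. The mesenchymal factor SNAI2 was higher with TEPA+IFN (0.61, adjusted p = 0.0205). FN1 was lost without DC+IFN library 1 or 2 or TEPA+IFN library 2 or 3 (adjusted p up to 0.131), and SNAI2 without DC+IFN library 2 or TEPA+IFN library 2 (up to 0.0629).

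Neither list of cell cycle genes held a call. None of 34 mitosis genes (median 0.05, 3 at an unadjusted p under 0.05) and none of 40 DNA replication and G1/S genes (median 0.04, 3 unadjusted) passed in edgeR, DESeq2 or limma-voom. Cyclin B1, CCNB1, was at 207, 187 and 225 CPM against 218, 214 and 224 CPM (log2 fold change -0.09, 95% interval -0.32 to 0.15). With the GC trend removed, where 971 of 14654 genes were called higher, 8 mitosis genes and 2 DNA replication genes were called, all higher with TEPA+IFN. In edgeR there were also no calls among 32 hypoxia and glycolysis genes (3 unadjusted), 34 autophagy and lysosome genes (4 unadjusted) and 26 immediate early genes (5 unadjusted), and the 30 cytosolic ribosomal protein genes had only positive values (median 0.25, 29 of 30 with the GC trend removed) with none called and 2 unadjusted.

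Each arm was also compared with IFN alone. Both comparisons use the same 3 IFN libraries, so their values are given side by side and not related to each other. TEPA+IFN differed from IFN alone in 279 genes (1.9% of those tested), 111 higher (0.757%) and 168 lower (1.15%). DC+IFN differed from IFN alone in 3 genes (0.0205%), of which NQO1 and FTH1 were higher (0.0136%) and FN1 lower (0.00682%). Of the 398 genes called between the arms 199 were also called for TEPA+IFN against IFN, 3 for DC+IFN against IFN and 196 for neither. For DC+IFN the unadjusted p was under 0.05 in 336 genes (2.29%), 6 genes passed in DESeq2, and FN1 was lost without DC+IFN library 2 or IFN library 2. For TEPA+IFN the count was 169 without IFN library 1, 175 without IFN library 2, 130 without TEPA+IFN library 1 and 124 without TEPA+IFN library 2, and 202 and 251 without library 3 of IFN or of TEPA+IFN. With a replicate block it was 428 in all 24 libraries. In a fit of only the libraries compared it was 121 without the block and 2777 with it.

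SLC30A1 had a log2 fold change of -1.75 for TEPA+IFN over IFN (adjusted p = 7.57e-05 in edgeR) and -0.08 for DC+IFN over IFN (adjusted p = 0.95). SLC39A10 had 1.68 and 0.25, CDKN1A 1.32 and -0.05, PHLDA3 1.67 and 0.07, INSIG1 -1.10 and 0.15, and SCD -0.62 and 0.10. For each of them the TEPA+IFN value was called and the DC+IFN value was not. NQO1 was the reverse, at -0.42 (adjusted p = 0.198) and 1.30 (adjusted p = 0.000902), as was FTH1, at -0.02 and 0.52 (adjusted p = 0.00216). GCLM (-0.34 and 0.63), TXNRD1 (-0.07 and 0.51), ME1 (-0.27 and 0.50) and SRXN1 (-0.05 and 0.31) were called in neither. The transferrin receptor TFRC had 0.81 (adjusted p = 0.0112) and 0.57 (adjusted p = 0.95) over IFN alone, and between the arms 0.23 (adjusted p = 0.625; 9.08e-05 with the GC trend removed).

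Over IFN alone the p53 list had 12 of 31 tested members higher with TEPA+IFN (median 0.64), beside 0.757% of all genes. With DC+IFN 0 were called (median 0.07). The sterol list had 5 of 24 members lower with TEPA+IFN (median -0.36) and the fatty acid list 3 of 15 (median -0.35), beside 1.15% of all genes. With DC+IFN 0 members of either list were called (medians 0.01 and 0.07). In the NRF2 list 0 of 31 members were called with TEPA+IFN (median -0.02). With DC+IFN 2 were higher (median 0.20), beside 0.0136% of all genes. MT2A was called lower for TEPA+IFN over IFN (-1.92, adjusted p = 0.0302 in edgeR) and not for DC+IFN (-0.89, adjusted p = 0.95).

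**Figure D4:**
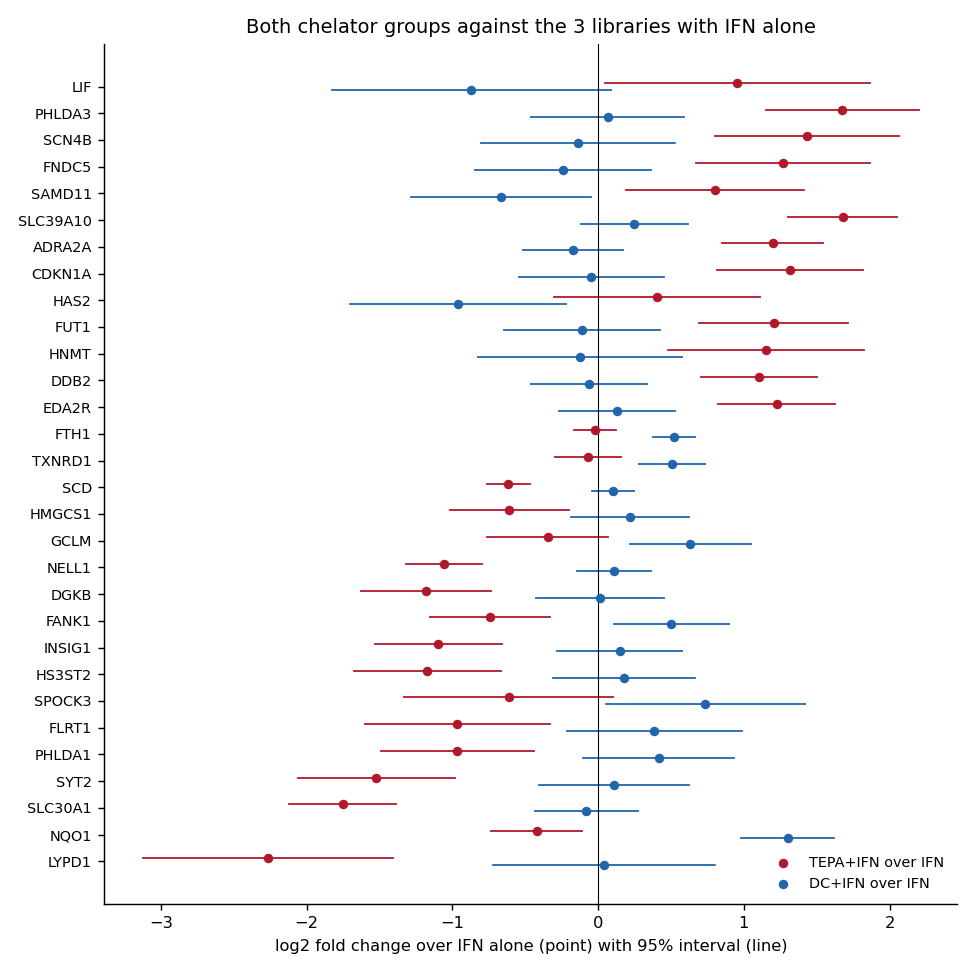
Log2 fold change over the 3 libraries with IFN alone (x axis), with the 95% interval of the fit as a line, for TEPA+IFN (red) and DC+IFN (blue); genes on the y axis are ordered by the difference between the arms. Most red points lie away from 0 with the blue point near it, and NQO1 and FTH1 show the opposite; both series share the IFN libraries.

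The same contrast without IFN rests on other libraries, 3 with TEPA and 3 with DC. It called 185 genes (1.26%), 86 higher (0.587%) and 99 lower (0.676%) with TEPA, and 287 with a replicate block in all 24 libraries. Whether the replicate numbers pair these 6 libraries is not settled. Same-numbered libraries correlated in their deviations at 0.12, 0.76 and 0.52, but TEPA library 1 also did with DC library 3, at 0.59. The count was 2 when the 6 libraries were fitted alone and 406 when that fit had the replicate block, 75 and 106 when DC library 1 or 3 was left out, and 113 and 85 when TEPA library 1 or 3 was. Of the 398 genes called with IFN 395 had the same sign without it (99.2%), beside 74.2% of all genes tested. Called in both were 129 genes, which is 32.4% of the calls with IFN and 69.7% of those without, all 129 in the same direction. Over the 398 genes the median size of the log2 fold change was 0.59 with IFN, by which they were chosen, and 0.41 without.

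Without IFN the log2 fold change of TEPA over DC was -1.33 for SLC30A1 (adjusted p = 0.000409 in edgeR), 1.31 for SLC39A10 (adjusted p = 0.000521), -1.64 for NQO1 (adjusted p = 2.69e-05), 1.15 for CDKN1A (adjusted p = 0.0167) and -0.44 for SCD (adjusted p = 0.00195). The p53 list had 14 of 31 tested members higher there (median 0.69), beside 0.587% of all genes. Called lower were 5 of 31 in the NRF2 list, 4 of 24 in the sterol list and 1 of 15 in the fatty acid list. Of all genes 0.676% were lower. With the replicate block in all 24 libraries these counts were 17, 7, 7 and 3. That fit called 132 of 14654 genes higher and 155 lower. CHGB, called with IFN, had -0.20 (adjusted p = 0.837) without it, and LYPD1 had -0.93 (adjusted p = 0.398).

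Whether the TEPA to DC difference itself changed with IFN was tested as an interaction. edgeR called 0 genes, with 199 (1.36%) at an unadjusted p under 0.05 and a smallest adjusted p of 0.615; DESeq2 called 1 and limma-voom 0. With a replicate block in all 24 libraries 2 genes were called, ATF3 and IFRD1, both stress response regulators, and with the GC trend removed 3. SLC7A11, the cystine importer, had the smallest p and is named after its values were seen. It was at 31.2, 33.7 and 26.0 CPM with TEPA+IFN and 43.1, 46.5 and 35.3 CPM with DC+IFN, but at 14.2, 12.4 and 13.8 CPM with TEPA and 62.6, 47.9 and 58.9 CPM with DC. The log2 fold change was -0.46 with IFN (adjusted p = 0.357) and -2.07 without (adjusted p = 8.33e-05), a difference of 1.61 (SE 0.30, edgeR adjusted p = 0.615, 0.00337 in DESeq2, 0.00724 with the 24 h libraries only and 0.00072 with the GC trend removed).

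The ATF4 list, to which SLC7A11 and ATF3 belong, had a median of 0.40 with IFN and -0.14 without, and the interaction was positive in 33 of 33 members (median 0.52) with none called in edgeR. With the GC trend removed and a replicate block 5 members were called, ATF3, SLC7A11, CEBPG, MTHFD2 and PSAT1. ATF3 had 0.59 with IFN and -0.73 without (interaction 1.32, SE 0.30, edgeR adjusted p = 1; 0.0024 with the replicate block). The death receptor FAS, both a p53 and an IFN target, had 0.33 with IFN (adjusted p = 0.609) and 1.44 without (adjusted p = 0.00289). Its interaction of -1.11 (SE 0.32) was not called (adjusted p = 1), so the difference between these values is not established by the test.

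**Figure D5:**
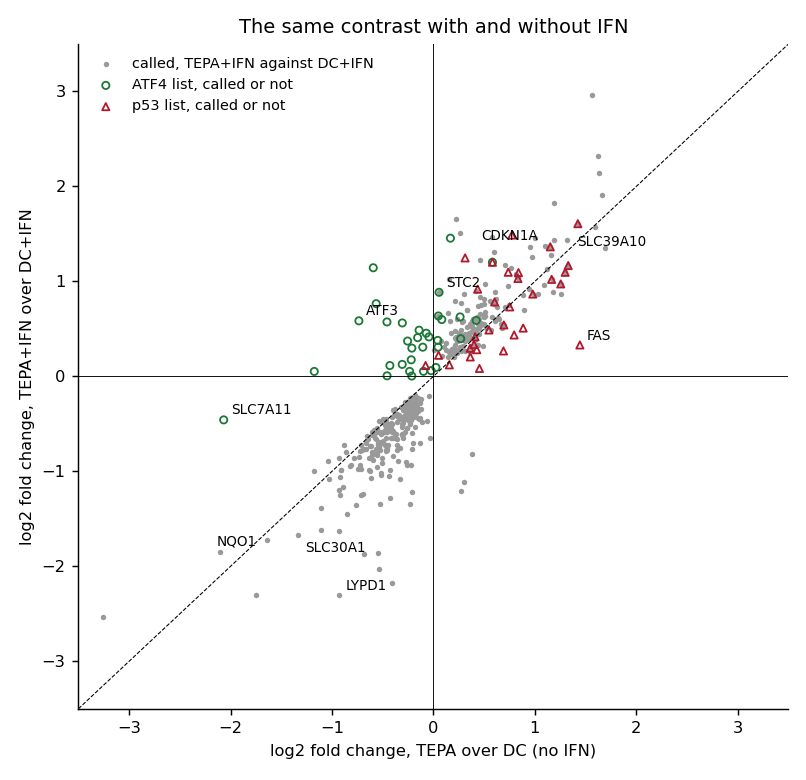
Log2 fold change of TEPA over DC with IFN (y axis) against that without IFN (x axis), from separate libraries; grey points are the 398 genes called with IFN, green circles the ATF4 list and red triangles the p53 list, called or not, and the dashed line marks equal values. Most grey points have the same sign on both axes, the p53 members lie to the upper right, and the ATF4 members lie above the line.

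Markers of other cell types were not called between the arms in edgeR, and in bulk RNA fewer cells of a type and less RNA per cell cannot be told apart. Of 4 tested Schwann cell markers 0 were called (1 unadjusted); their summed level was 61.6 to 64.8 CPM with TEPA+IFN and 73.7 to 74.1 CPM with DC+IFN, nearly all of it PMP22 (log2 fold change -0.22, adjusted p = 0.0893 in edgeR, 0.0268 in DESeq2 and 0.032 with the GC trend removed), and SOX10 had at most 3 counts in a library. This sum did not overlap between the arms, and its part in the results was not tested. Of 5 tested fibroblast and endothelium markers 0 were called in edgeR (1 unadjusted); their sum was 520 to 620 CPM with TEPA+IFN and 520 to 602 CPM with DC+IFN, mostly the collagen gene COL3A1 (adjusted p = 0.136, and 0.0355 with the GC trend removed and a replicate block) and lumican, LUM, and the endothelial PECAM1 and CDH5 had 0 or 1 count in each library. The 1 tested epithelium and the 1 tested leukocyte marker were not called, and KRT5, KRT14 and CD3E had 0 counts in all 6 libraries.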

How the data were processed

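Silica columns and a stranded poly(A) kit were used for RNA and libraries, per the labels' protocols. The authors deposited raw counts, whole numbers for 26485 gene symbols in each of 24 libraries. Per the submitters' processing notes they used STAR 2.5a, RSEM 1.2.31 and build hg38; the annotation release, the strand setting of the counting and any filter are not given in the sources used here, so antisense genes were not named. The table equals the list deposited for each of the 24 libraries. None of the 13 mitochondrially encoded gene symbols searched was in the table, so these transcripts were not analysed here.

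Computed from the counts in R 4.3.3: genes were filtered with filterByExpr of edgeR 4.0.16 (minimum count 10), scaled by TMM and fitted with a quasi-likelihood negative binomial model, 1 mean per group over all 24 libraries (16 residual degrees of freedom, common biological coefficient of variation 0.207). Calls were at a Benjamini-Hochberg adjusted p under 0.05 over the 14654 genes tested; log2 fold changes carry the SE and 95% interval of the fit. The procedure was tested on simulated counts with known changes. These were drawn without a GC shift or a shared replicate effect, so that test does not cover either. Positions and GC content came from GENCODE 29 on GRCh38, in which 23900 symbols (90.2%) were found; GC is known for 93.7% of tested genes. Promoter sequences are from RefSeq, GRCh38.p14.

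Named by rule were 15 preset genes, the 12 highest and 12 lowest of the called genes that averaged 1 CPM or more, had a gene-style symbol and did not overlap between the arms, the 5 highest and 5 lowest called for the interaction (none was), and up to 4 called members (or the 2 most abundant) of each of 33 gene lists; further called list members are named to complete their lists. Some genes that these rules name, though counted in their lists, are not reported here. Members and lists were chosen with earlier results of these data known. Deviations from the group mean were correlated between same-numbered libraries 1, 2 and 3 of 2 groups. The values were 0.12, 0.76 and 0.52 for TEPA and DC without IFN, and 0.24, -0.15 and -0.15 for TEPA+IFN and DC+IFN. They were 0.07, 0.54 and 0.56 for TEPA+IFN and IFN, and -0.01, -0.18 and -0.30 for DC+IFN and IFN. Differently numbered TEPA and DC libraries reached 0.59, and the GC trend was not removed first. These values therefore do not settle whether the numbers pair libraries. Replicates of an arm differed by more than counting noise. Alternatives were size factors, other filters, fewer libraries, a replicate block, removal of a GC trend (spline with 5 degrees of freedom), DESeq2 1.42.0, limma-voom 3.58.1 and each library left out.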

Additional observations from a re-analysis of the deposited data

How the results depend on the processing

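Between TEPA+IFN and DC+IFN, against 398 calls, there were 265 without a filter, 638 with the 24 h libraries only, 713 with only the libraries compared (246 with a replicate block there), 731 in DESeq2, 1895 with the GC trend removed (2162 with the replicate block as well) and 86 with the GC-rich library of each arm left out, where fewer samples are fitted. Leaving out 1 library gave 181 to 373. The same-numbered libraries of these arms correlated in their deviations at 0.24, -0.15 and -0.15, with the GC trend left in. Whether the numbers mark a shared batch was not tested, and the block gave 493 calls in all 24 libraries. Without IFN, against 185 calls, the counts were 123 (no filter), 289 (24 h), 2 (only these libraries), 406 (these with the block), 287 (block, all 24), 434 (DESeq2), 1349 (GC), 1540 (GC with block) and 75 to 207 leaving out 1 library. For the interaction, against 0, they were 1 (24 h), 2 (block, all 24), 1 (block, these libraries), 3 (GC), 8 (GC with block), 1 (DESeq2) and 0 to 0 leaving out 1 library. For TEPA+IFN against IFN, against 279, they were 183 (no filter), 481 (24 h), 428 (block, all 24), 1790 (GC), 1997 (GC with block), 121 (only these libraries), 2777 (these with the block), 583 (DESeq2) and 124 to 251 leaving out 1 library. For DC+IFN against IFN, against 3, they were 7 (GC), 11 (GC with block), 1 (only these libraries), 0 (these with the block), 6 (DESeq2) and 2 to 3 leaving out 1 library. The causes of these shifts were not tested. Of 71 genes called between the arms and followed singly 17 kept their call in all alternatives run and 41 in each fit that left out 1 library, no gene reversed, and 11 of 37 such genes not called passed in at least 1 alternative. Genes near 1 CPM, such as FLRT1 and SPOCK3, rest on few counts.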
